A study of Mus musculus with 15 samples.

Results

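The genes of the epithelial sodium channel (ENaC) and of the mineralocorticoid response that controls it were followed in the kidneys of 15 mice. The set holds 9 genes, chosen by name: the channel subunits Scnn1a, Scnn1b and Scnn1g, the mineralocorticoid receptor Nr3c2, the cortisol and corticosterone inactivating enzyme Hsd11b2, the kinase Sgk1, the ubiquitin ligase Nedd4l, the leucine zipper protein Tsc22d3 (GILZ) and the protease Prss8. Their transcripts were matched by Ensembl identifier to gene symbols, and FPKM (fragments scaled to transcript length in kilobases and to library size) was summed per gene. All 9 passed the filter on low values and were among the 12372 genes tested, out of 13940 genes with a transcript listed for every mouse. The mice were male wild-type (WT) C57BL/6, bought at 8 weeks of age and used after 1 week of adaptation, with 5 mice in each of 3 groups. Control mice received saline and the AngII group received angiotensin II at 500 ng/kg/min from osmotic pumps under the skin for 28 days, and both were gavaged with water. The AngII+QDG group received the same infusion and Qingda granule (QDG), a Chinese medicine formula of 4 herbs, by gavage at 1.145 g/kg/day. RNA came from whole renal tissue, so that fewer cells of a type and less RNA per cell cannot be told apart.

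ENaC is the channel through which sodium enters the principal cells of the connecting tubule and collecting duct, and its activity is limiting for the final adjustment of sodium excretion. Aldosterone binds the mineralocorticoid receptor, whose targets include Scnn1a, Sgk1 and Tsc22d3. Sgk1 phosphorylates Nedd4-2, the product of Nedd4l, which otherwise ubiquitinates the channel and removes it from the membrane. Hsd11b2 inactivates glucocorticoids in the same cells and so keeps the receptor available to aldosterone, and Prss8 (prostasin, CAP1) is a membrane-bound protease that activates the channel by cleavage. Angiotensin II stimulates aldosterone release from the adrenal cortex, and the comparison of AngII vs. Control asks whether the transcripts of this axis differed in the kidney after the infusion. The comparison of AngII+QDG vs. AngII asks the same of the treatment.

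The files implied totals of 68923100 to 81329500 reads per mouse. Pairs of mice of 1 group had Pearson correlations of 0.941 to 0.954 across transcripts, and no mouse stood apart. Assembled transcripts without a gene name held 9.71% to 12.1% of the summed FPKM per mouse, and reads given to them are not in any gene sum. Aqp2, the water channel that defines principal cells, was found in all 15 mice at 63.7 to 278 FPKM. Of 6 adrenal cortex markers, only Star was listed in all files, at a level of 0.692 to 1.45 FPKM, while Cyp11b1, Cyp11b2, Cyp11a1, Mc2r and Nr5a1 had no transcript there. Ren1 (renin), which angiotensin II is known to lower, had 33.2 ± 3.79 FPKM in Control and 30.1 ± 8.97 FPKM in AngII (SD, n = 5 each; log2 fold change −0.18, limma adjusted p = 0.718), so this check of the labels found no difference that passed.

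The sequences in which 2 of the members turned on how reads were divided among transcripts are given first. Scnn1b (GRCm38, chr7:121865038-121918514, plus strand) was listed as 2 transcripts that share 2439 bases of exon. The coding transcript ENSMUST00000033161 has 2478 bases, and ENSMUST00000205520, annotated as subject to nonsense-mediated decay, has 2591. The latter has a block of 150 bases (chr7:121917350-121917499) that the former lacks, and its reading frame ends inside that block. The transcripts also differ at their ends, and the Control mice differed in how reads were divided between them. Shown are the bases from the start of the block to the stop codon (GENCODE release M21, stop codon in capitals, chr7:121917350-121917398):
Scnn1b added bases: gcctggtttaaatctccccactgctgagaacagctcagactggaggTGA
Sgk1 (chr10:21882184-21999903, plus strand) was listed as 7 transcripts, of which 3 begin translation at different first exons. Their first coding bases (GENCODE release M21, start codon in capitals) are shown because a single AngII mouse had most of its reads on another start than the rest:
ENSMUST00000092673 first coding bases, chr10:21994064-21994093: ATGggcgagatgcagggcgcgctggctcgg
ENSMUST00000120509 first coding bases, chr10:21882639-21882668: ATGgtaaacaaagacatgaatggattcccg
ENSMUST00000020145 first coding bases, chr10:21994750-21994779: ATGaccgtcaaagccgaggctgctcgaagc

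The mineralocorticoid and glucocorticoid receptors bind a palindrome of AGAACA and TGTTCT separated by any 3 bases. RefSeq promoter windows (GRCm38.p6, from 250 bases before to 50 after a start) were matched for 5 members, with 12 windows in all: Scnn1b, Scnn1g, Nr3c2, Sgk1 and Tsc22d3. Windows were not matched for Scnn1a, Hsd11b2, Nedd4l and Prss8. The full palindrome, which reads the same on both strands, was found in 1 of the 12 windows, that of the main Sgk1 transcript ENSMUST00000092673, where it begins 189 bases before the start. It occurs in 3 of 32851 windows of this length, or 0.00913%. The first 136 bases of that window (chr10:21993640-21993775, plus strand) are shown with the palindrome in capitals:
Sgk1 promoter: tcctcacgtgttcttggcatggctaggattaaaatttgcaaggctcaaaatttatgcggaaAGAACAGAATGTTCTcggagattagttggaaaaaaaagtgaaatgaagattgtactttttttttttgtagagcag
The same window holds AGAACA or its reverse complement TGTTCT at 3 places, both arms of the palindrome included, and the E-box CACGTG at 1 place, where it overlaps a TGTTCT. The 6-base arm alone is found in 19.0% of all windows and CACGTG in 7.15%. These matches are descriptions of the letters, and no binding was measured.

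The level of the members, compared per transcript length as FPKM, was highest for Prss8, with a median of 212 FPKM over the 15 mice. It was followed by Hsd11b2 with 57.4, Sgk1 with 52.3, Scnn1a with 42.6, Tsc22d3 with 17.5, Nedd4l with 17.3, Scnn1b with 14.1, Scnn1g with 12.7 and Nr3c2 with 2.51 FPKM. Prss8 was above Hsd11b2, Scnn1a above Tsc22d3 and Scnn1g above Nr3c2 without any overlap between mice. The ranges of the other neighbours overlapped. Hsd11b2 exceeded Sgk1 in 8 of 15 mice and Tsc22d3 exceeded Nedd4l in 8 of 15, so these orders were within the spread between mice. The order of Scnn1b and Scnn1g turned by group: Scnn1g was the higher in 4 of 5 Control mice, and Scnn1b in 4 of 5 AngII and 5 of 5 AngII+QDG mice.

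In AngII vs. Control, 1 of the 9 members was upregulated at a limma adjusted p under 0.05 and none was downregulated, against a background of 5.94% of all genes tested that were called in either direction and 4.95% called higher. At an unadjusted p under 0.05 there were 2 members (background 22.7%). The threshold used in the study for transcripts, a fold change of at least 2 with an unadjusted p under 0.05, was met by 1 member (background 1.05%). The median log2 fold change of the 9 members was −0.020, and that of all genes was 0.083. After QDG, in AngII+QDG vs. AngII, 0 of 9 members passed the adjusted threshold (background 1.81%) and 2 had an unadjusted p under 0.05 (background 16.4%), with a member median of −0.057 beside −0.019 over all genes. Between AngII+QDG and Control the count was again 0 of 9 (background 0.129%), and 1 member had an unadjusted p under 0.05 (background 14.4%), with a member median of 0.18 beside 0.059. No member separated the groups without overlap in any comparison, where 7.91%, 5.00% and 3.64% of all genes did so. The plot of gene sums by mouse shows the 9 members, and the plot of fold changes gives their intervals.

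**Figure D1:**
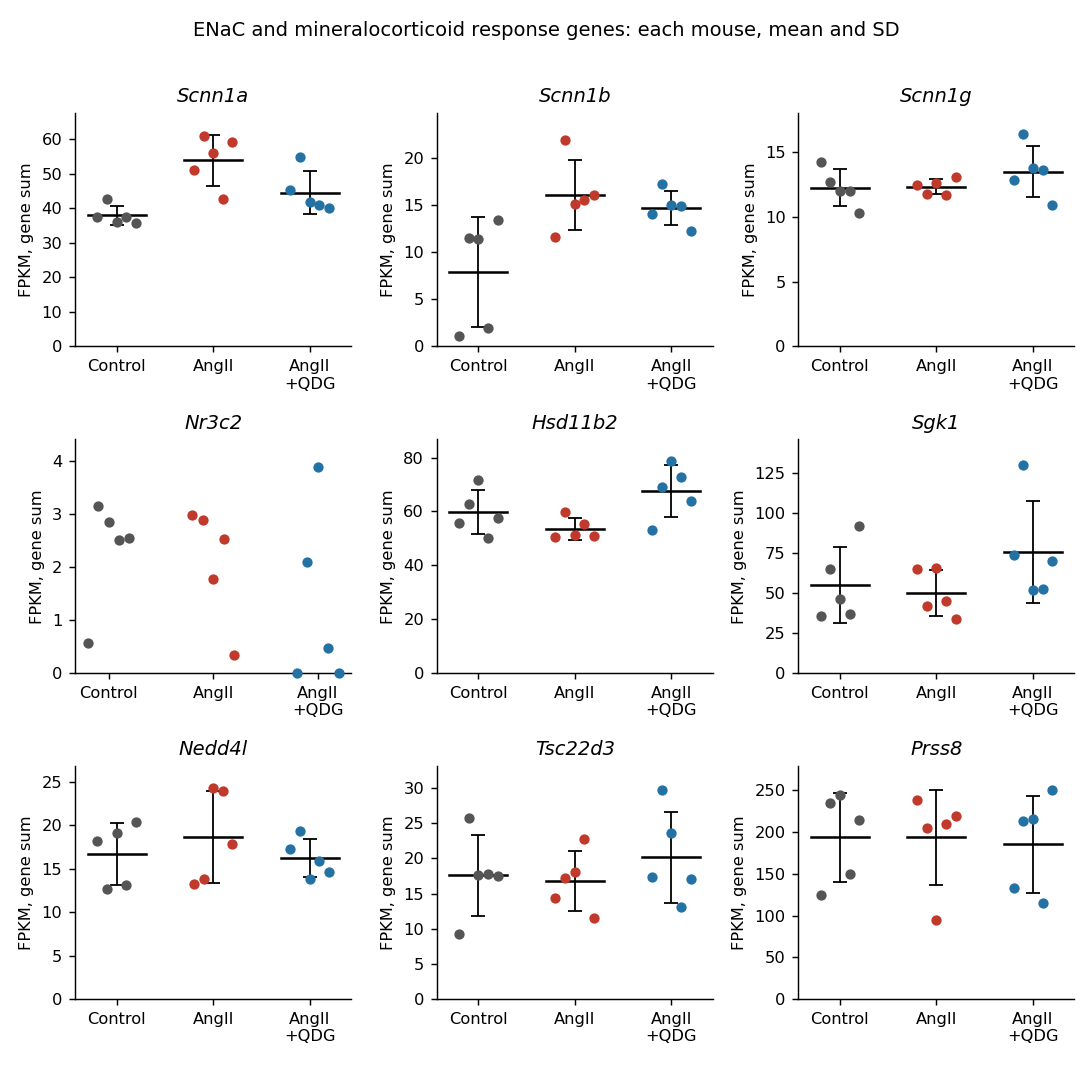
Gene sums in FPKM (vertical axes, from 0) of the 9 members in each of 15 mice (points), by group (horizontal axes), with the mean (bar) and SD (whiskers) of 5 mice; no mean is drawn for Nr3c2, which was listed at or near 0 in single mice. For Scnn1a, 4 of the 5 AngII points lie above every Control point, and for Scnn1b a pair of Control mice lies near 1 and 2 FPKM.

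**Figure D2:**
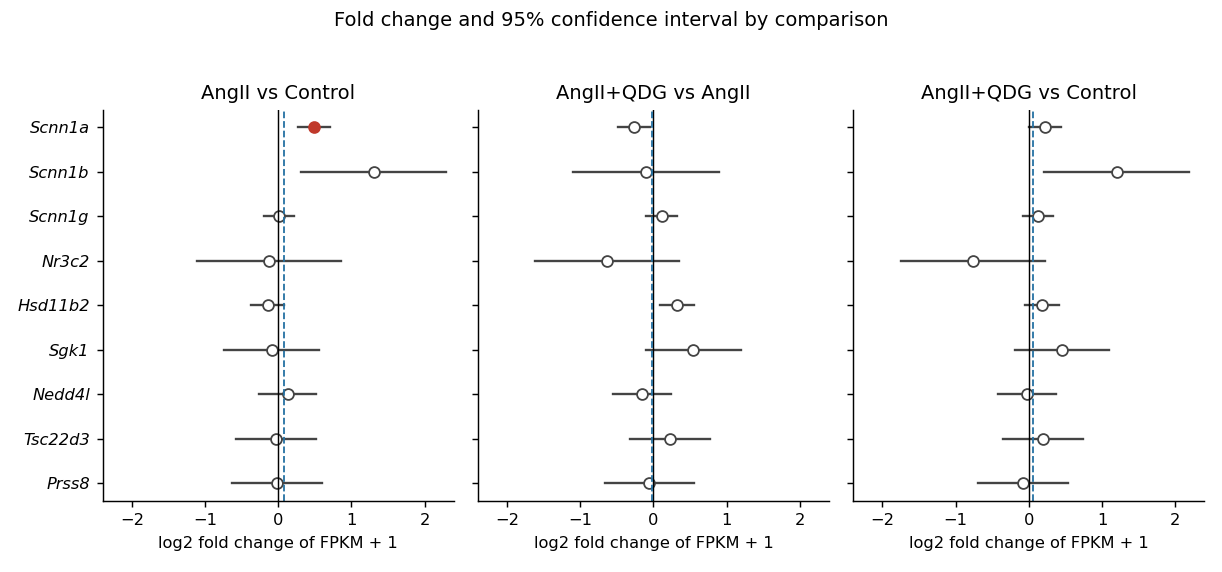
Log2 fold change of FPKM + 1 (horizontal axis) with its 95% confidence interval for each member (vertical axis) in the 3 comparisons; the filled red point passed an adjusted p under 0.05 and the dashed blue line is the median of all 12372 genes. The only filled point is Scnn1a in AngII vs. Control, at 0.49.

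Scnn1a, which encodes the alpha subunit required for a conducting channel, was upregulated in AngII vs. Control. It lies at chr6:125320659-125344943 on the plus strand and was listed as the single coding transcript ENSMUST00000081440. The Control mice had 37.5, 42.8, 36.0, 37.4 and 35.8 FPKM. The AngII mice had 50.9, 60.8, 56.1, 42.6 and 59.1 FPKM. The AngII+QDG mice had 45.1, 54.9, 41.7, 40.98 and 40.03 FPKM. Of the 5 AngII mice, 4 were above every Control mouse, and the fifth was just below the highest Control mouse. The AngII+QDG mice lay between, with 3 of them below every AngII mouse and 2 above every Control mouse. The means were 37.9 ± 2.84, 53.9 ± 7.35 and 44.6 ± 6.12 FPKM (SD, n = 5 each), on 9451 to 16870 reads per mouse. The log2 fold change of AngII vs. Control on the log2(FPKM + 1) scale was 0.49 (standard error 0.10, 95% interval 0.27 to 0.71), or 1.403-fold, with a limma adjusted p of 0.0175. It passed the adjusted threshold with each mouse left out in turn (adjusted p from 0.0106 to 0.0468). Quantile normalization gave 0.41 with an adjusted p of 0.0555 and so ended the call. Tested as a transcript among the 28812 transcripts, the same values had an adjusted p of 0.0556.

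The log2 fold change of Scnn1a in AngII+QDG vs. AngII was −0.27 (standard error 0.10, interval −0.49 to −0.045), with an unadjusted p of 0.0218 and a limma adjusted p of 0.209, which did not pass. The same 5 AngII mice enter both comparisons. It was 0.22 in AngII+QDG vs. Control (adjusted p = 0.352). The summed level of 8 principal cell markers ranged from 148 to 349 FPKM in Control, 133 to 370 in AngII and 213 to 406 in AngII+QDG. With the mean log2 level of the 7 of them that passed the filter as a covariate, the fold change of Scnn1a in AngII vs. Control was 0.52 on the log2 scale (adjusted p = 0.0204).

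Scnn1b, the beta subunit, showed the highest fold change of the members in AngII vs. Control, and its value rested on how Control reads were divided between the transcripts shown above. The coding transcript had 1.12, 11.6, 11.5, 2.01 and 13.5 FPKM in the Control mice. It had 11.6, 21.96, 15.2, 15.6 and 16.2 FPKM in AngII and 14.1, 17.3, 15.1, 14.9 and 12.3 FPKM in AngII+QDG. Control mice 1 and 4 were far below the rest, and the other 3 Control mice were near the lower end of both infused groups. The transcript with the added bases was listed for the Control mice only. It had 6.91, 0.31, 0.02, 6.89 and 0.10 FPKM there, so that it was high in the same 2 mice in which the coding transcript was low.

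On the transcript listed in all 15 mice, the log2 fold change of Scnn1b in AngII vs. Control was 1.304 (standard error 0.46, interval 0.31 to 2.30), with an unadjusted p of 0.0137 and a limma adjusted p of 0.111. It met the threshold of the study and did not pass after adjustment. With the Control-only transcript added to the sum, the Control mice had 8.04, 11.9, 11.5, 8.90 and 13.6 FPKM, and the log2 fold change was 0.53 (unadjusted p = 0.00442, adjusted p = 0.059). Whether that transcript was at 0 in the infused mice or was left out of their tables cannot be told apart. For AngII+QDG vs. AngII the value was −0.10 (interval −1.09 to 0.89, adjusted p = 0.947). For AngII+QDG vs. Control it was 1.20 (unadjusted p = 0.0209, adjusted p = 0.258), and 0.43 with the Control-only transcript added (adjusted p = 0.2).

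**Figure D3:**
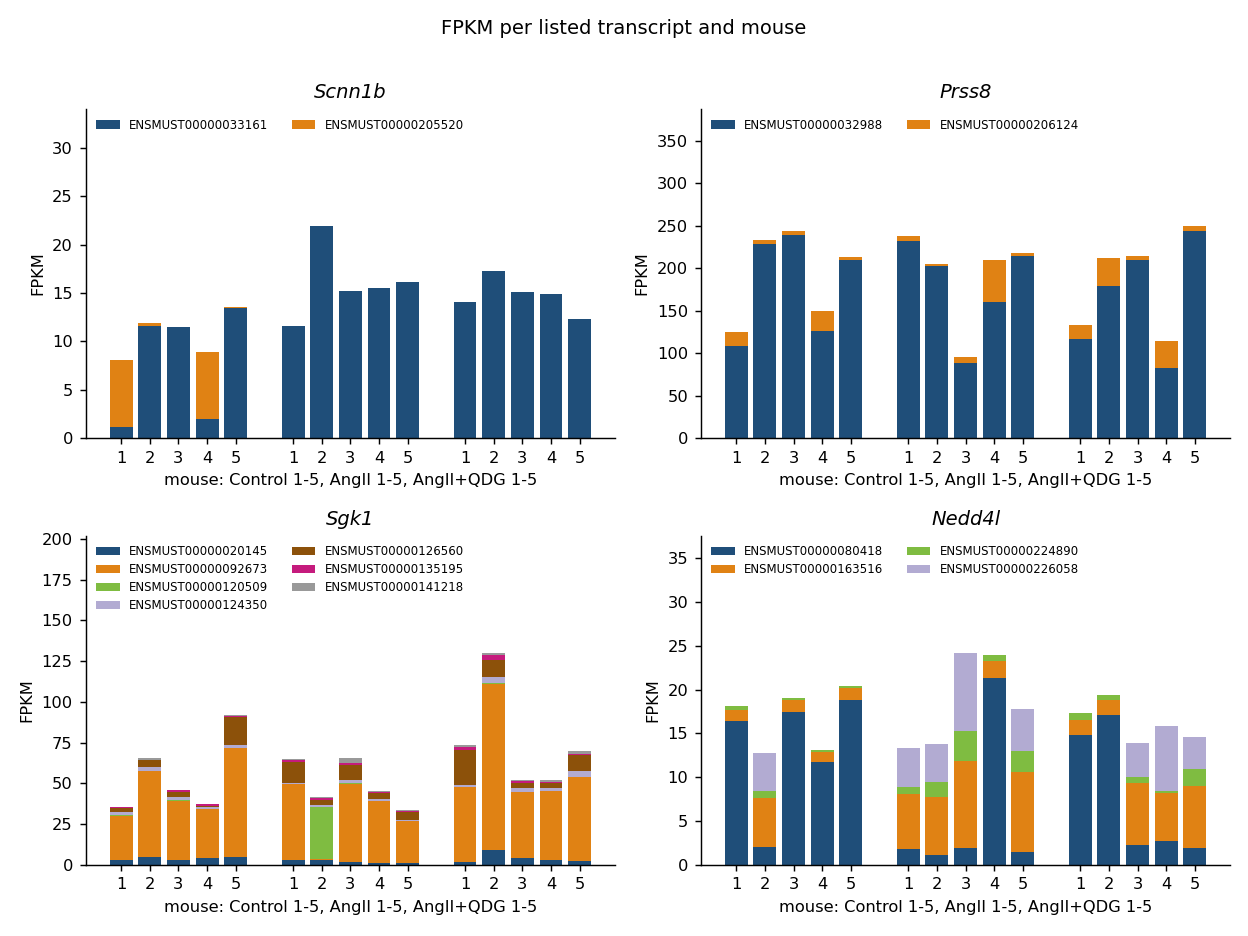
FPKM of each listed transcript (coloured segments, stacked to the gene total on the vertical axes) in each of 15 mice (horizontal axes, mice 1 to 5 of Control, AngII and AngII+QDG from left to right) for Scnn1b, Prss8, Sgk1 and Nedd4l. The leading transcript changes in Control mice 1 and 4 for Scnn1b, in AngII mouse 2 for Sgk1, and in 8 mice for Nedd4l; the second Scnn1b transcript was listed for Control mice only.

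Scnn1g, the gamma subunit, did not share the higher level of Scnn1a. It lies at chr7:121734479-121768475, on the same chromosome and strand as Scnn1b, and was listed as 1 coding transcript. The Control mice had 14.3, 12.7, 12.04, 11.996 and 10.3 FPKM. The AngII mice had 12.5, 11.8, 12.7, 11.7 and 13.1 FPKM, and the AngII+QDG mice had 12.8, 16.4, 13.8, 13.6 and 10.9 FPKM. All AngII values lay within the Control range, and those of AngII+QDG reached above and below the AngII range. Its log2 fold change was 0.016 in AngII vs. Control (interval −0.19 to 0.22, adjusted p = 0.947), 0.11 in AngII+QDG vs. AngII (interval −0.10 to 0.32, adjusted p = 0.62) and 0.13 in AngII+QDG vs. Control (adjusted p = 0.58). The first of these turned to −0.076 with quantile normalization and to −0.075 with median scaling.

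The mix of the subunits differed between groups in the share of Scnn1g. Each subunit was expressed as a percentage of the summed FPKM of the 3 subunits in the same mouse. A share thus also moves with the levels of the other subunits. The level of Scnn1g itself did not pass (limma adjusted p = 0.947 in AngII vs. Control and 0.62 in AngII+QDG vs. AngII). Mean Scnn1a was 37.9, 53.9 and 44.6 FPKM in Control, AngII and AngII+QDG, and mean Scnn1b was 7.93, 16.1 and 14.7 FPKM. The Scnn1g share was 27.004, 18.9, 20.2, 23.3 and 17.3% in Control. It was 16.6, 12.5, 15.1, 16.7 and 14.8% in AngII, and 17.8, 18.5, 19.5, 19.6 and 17.3% in AngII+QDG. Every AngII mouse was below every mouse of the other groups, while Control and AngII+QDG overlapped. The means were 21.3 ± 3.86%, 15.2 ± 1.72% and 18.5 ± 1.02% (SD, n = 5 each). The difference was −6.19 percentage points in AngII vs. Control and 3.38 points in AngII+QDG vs. AngII. Each had p = 0.00794 in the exact two-sided permutation test, the smallest that 5 against 5 mice can give, and an adjusted p of 0.0357 over 9 tests. With a mouse left out the exact permutation p was 0.0159 in every case, again the smallest possible, and the adjusted p was 0.0714 in 8 of 10 cases in AngII vs. Control and in 9 of 10 in AngII+QDG vs. AngII, and 0.0476 in the others, which were without Control mouse 5 or AngII mouse 4 in the former and without AngII mouse 4 in the latter. With the Control-only Scnn1b transcript included, the first difference was −4.99 points with the same exact p. AngII+QDG differed from Control by −2.81 points (exact permutation p = 0.167). Since all 5 AngII mice enter both differences, they are not independent of each other.

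The Scnn1a share was 65.6 ± 5.88% in Control, 65.4 ± 2.79% in AngII and 61.2 ± 2.04% in AngII+QDG (SD, n = 5 each). It was lower by 4.18 points in AngII+QDG than in AngII, with an exact permutation p of 0.0397 and an adjusted p of 0.119, which did not pass. The Scnn1b share was 13.0 ± 9.36%, 19.5 ± 3.22% and 20.3 ± 1.06%, and its differences did not pass (lowest exact permutation p = 0.151). Control mice 1 and 4, which had 2.12% and 3.92% Scnn1b, set the wide Control spread. The Scnn1a share in AngII vs. Control was −0.25 points as listed and 3.19 points with the Control-only transcript included (exact permutation p = 0.0556).

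**Figure D4:**
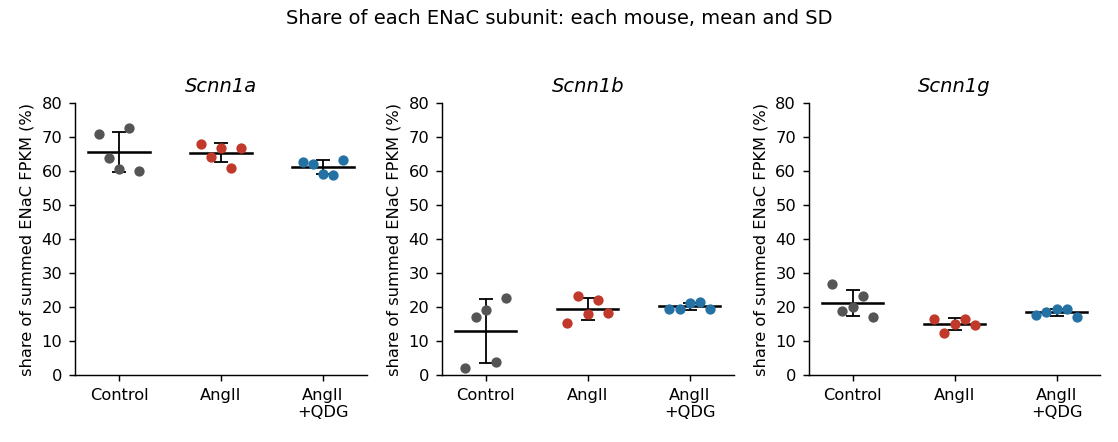
Share of each ENaC subunit in the summed FPKM of Scnn1a, Scnn1b and Scnn1g (vertical axes, percent, from 0) in each mouse (points) by group, with the mean (bar) and SD (whiskers) of 5 mice. The AngII points for Scnn1g, from 12.5 to 16.7%, lie below all points of the other groups.

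Nr3c2, the mineralocorticoid receptor (chr8:76899442-77245012, plus strand), was the lowest of the members and the one with the widest relative spread. Only its transcript ENSMUST00000109912 was listed for every mouse. The Control mice had 0.57, 3.15, 2.84, 2.51 and 2.55 FPKM, and the AngII mice had 2.98, 2.88, 1.77, 2.52 and 0.33 FPKM. The AngII+QDG mice had 2.10, 3.88 and 0.46 FPKM in mice 2, 3 and 4, and the transcript was listed at or near 0 in mice 1 and 5, on 1 and 0 reads. Every group held both a low and a high mouse, and the highest value of all was in AngII+QDG. The difference on the log2 scale was −0.13 in AngII vs. Control (interval −1.11 to 0.86, adjusted p = 0.907), −0.63 in AngII+QDG vs. AngII (interval −1.62 to 0.35, adjusted p = 0.535) and −0.76 in AngII+QDG vs. Control (adjusted p = 0.47). None passed, and the intervals span differences of more than 1 log2 unit in the first 2 comparisons. With a pseudocount of 0.1 the latter 2 values were −1.71 (adjusted p = 0.421) and −1.95 (adjusted p = 0.385).

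Hsd11b2 (chr8:105518755-105523988, plus strand), whose enzyme protects the receptor from glucocorticoids, was listed as 1 transcript and varied little. The Control mice had 55.7, 62.9, 71.8, 50.3 and 57.4 FPKM. The AngII mice had 50.5, 59.9, 51.2, 55.2 and 50.9 FPKM, and the AngII+QDG mice had 53.2, 69.1, 78.8, 72.8 and 64.0 FPKM. The AngII values lay within the Control range, and 4 of 5 AngII+QDG mice were above every AngII mouse. On the log2 scale the fold change was −0.15 in AngII vs. Control (interval −0.38 to 0.085, adjusted p = 0.458). Against AngII, AngII+QDG had 0.32 (standard error 0.11, interval 0.092 to 0.55), with an unadjusted p of 0.00959 and a limma adjusted p of 0.143, which did not pass. Against Control it had 0.18 (adjusted p = 0.473).

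Sgk1, the aldosterone-induced kinase, had overlapping levels in the 3 groups. Its summed level was 35.6, 65.2, 45.9, 37.1 and 92.1 FPKM in Control. It was 65.1, 41.5, 65.3, 45.1 and 33.5 FPKM in AngII, and 73.6, 130.2, 51.8, 52.3 and 70.1 FPKM in AngII+QDG. Of the AngII+QDG mice, 3 were above every AngII mouse, and mouse 2 of that group was the highest of all 15. Log2 fold changes were −0.089 in AngII vs. Control (interval −0.73 to 0.56, adjusted p = 0.899), 0.54 in AngII+QDG vs. AngII (interval −0.10 to 1.19, adjusted p = 0.394) and 0.46 in AngII+QDG vs. Control (adjusted p = 0.511). None of these passed.

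The main Sgk1 transcript ENSMUST00000092673, whose promoter holds the palindrome, made up most of the sum. It ranged from 27.4 to 67.0 FPKM in Control and from 40.3 to 102.1 FPKM in AngII+QDG. In AngII it had 46.8, 0.20, 48.0, 38.2 and 25.4 FPKM. In AngII mouse 2, where it was nearly absent, ENSMUST00000120509 from the distant upstream start had 32.2 FPKM, against at most 0.27 FPKM in any other mouse. The log2 fold change of ENSMUST00000092673 in AngII vs. Control was −1.07 (unadjusted p = 0.213, adjusted p = 0.575), and without AngII mouse 2 it was −0.065 (adjusted p = 0.954). ENSMUST00000020145, which starts at the third of the coding starts shown, had a mean of 3.81 FPKM in Control and 2.03 FPKM in AngII (log2 fold change −0.70, unadjusted p = 0.0429, adjusted p = 0.296). The pair ENSMUST00000092673 and ENSMUST00000120509 share 2284 bases of exon, 88.7% of the former.

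Tsc22d3 (chrX:140539528-140600659, minus strand), which encodes the corticosteroid-induced protein GILZ, had overlapping levels as well. Its sum was 9.30, 25.7, 17.6, 17.7 and 17.5 FPKM in Control, 14.4, 17.2, 18.1, 22.8 and 11.5 FPKM in AngII, and 17.3, 29.6, 23.6, 13.2 and 17.1 FPKM in AngII+QDG. All AngII values lay inside the Control range, and the highest value was in AngII+QDG mouse 2, the mouse with the highest Sgk1. Fold changes on the log2 scale were −0.031 in AngII vs. Control (interval −0.58 to 0.51, adjusted p = 0.963), 0.23 in AngII+QDG vs. AngII (adjusted p = 0.71) and 0.20 in AngII+QDG vs. Control (adjusted p = 0.765). Across the 15 mice Sgk1 and Tsc22d3 had a Pearson r of 0.572 (permutation p = 0.0266, adjusted p = 0.083 over 4 pairs) and a Spearman rho of 0.40 (permutation p = 0.141). Without the 2 mice farthest from the median of Sgk1, r was 0.432. After the group means were subtracted, r was 0.529 (permutation p = 0.0434, adjusted p = 0.0868) and rho 0.425 (permutation p = 0.118), and r was 0.456 without 2 mice. The relation thus kept its direction within groups and did not pass after adjustment in either form.

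Nedd4l (chr18:64887705-65217828, plus strand), whose ligase removes ENaC from the membrane, had overlapping sums of FPKM, while its transcripts exchanged places between mice. The sum was 18.2, 12.7, 19.1, 13.1 and 20.4 FPKM in Control, 13.3, 13.8, 24.2, 23.9 and 17.8 FPKM in AngII, and 17.3, 19.4, 13.9, 15.9 and 14.6 FPKM in AngII+QDG. These overlapped, with log2 fold changes of 0.13 in AngII vs. Control (interval −0.26 to 0.52, adjusted p = 0.72), −0.16 in AngII+QDG vs. AngII (adjusted p = 0.727) and −0.025 in AngII+QDG vs. Control (adjusted p = 0.968). The reads implied for the gene ran from 4314 to 6237 in Control, 5971 to 10649 in AngII and 5014 to 6022 in AngII+QDG, with 4 of 5 AngII mice above every Control mouse. Summed as reads scaled to library size, an alternative chosen after seeing the data, the log2 fold change in AngII vs. Control was 0.46 (unadjusted p = 0.00642, adjusted p = 0.0759), which did not pass either.

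The Nedd4l transcript ENSMUST00000080418 had 16.5, 2.08, 17.5, 11.7 and 18.8 FPKM in Control, 1.77, 1.16, 1.97, 21.3 and 1.47 FPKM in AngII, and 14.9, 17.2, 2.31, 2.70 and 1.92 FPKM in AngII+QDG. It was thus high in 4 Control mice, 1 AngII mouse and 2 AngII+QDG mice and low in the others. ENSMUST00000163516, which starts further upstream, was at 5.50 to 9.90 FPKM in the 8 mice where the former was low and at 1.098 to 1.98 FPKM in the 7 where it was high. ENSMUST00000226058 was at 3.64 to 8.93 FPKM in the same 8 mice and at or near 0 in the 7. In AngII vs. Control the log2 fold change was 1.34 for ENSMUST00000163516 (unadjusted p = 0.0105, adjusted p = 0.164), 1.66 for ENSMUST00000226058 (unadjusted p = 0.0436, adjusted p = 0.298) and −1.60 for ENSMUST00000080418 (unadjusted p = 0.0541, adjusted p = 0.323). No Nedd4l transcript passed after adjustment. ENSMUST00000080418 and ENSMUST00000226058 share 3110 bases of exon, 84.7% of the former.

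Prss8 (chr7:127925716-127930104, minus strand), the channel-activating protease, was the most abundant member and fell into high and low mice within each group. Its sum was 125, 234, 244, 149 and 214 FPKM in Control, 238, 205, 95.1, 210 and 218 FPKM in AngII, and 133, 212, 215, 115 and 250 FPKM in AngII+QDG. Values under 150 FPKM occurred in 2 Control, 1 AngII and 2 AngII+QDG mice. Prss8 had log2 fold changes of −0.020 in AngII vs. Control (interval −0.63 to 0.59, adjusted p = 0.979), −0.057 in AngII+QDG vs. AngII (adjusted p = 0.951) and −0.077 in AngII+QDG vs. Control (adjusted p = 0.933). Its second coding transcript ENSMUST00000206124, all of whose 1709 bases lie within the first, had from 2.28 to 48.7 FPKM.

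Counted by transcript, the 9 members had 22 listed transcripts, of which 18 passed the filter. With limma, none passed an adjusted p under 0.05 in any comparison, where 0.691%, 0.0972% and 0.0243% of all transcripts did in AngII vs. Control, AngII+QDG vs. AngII and AngII+QDG vs. Control. At an unadjusted p under 0.05 there were 5 in the first (background 15.9%), 3 in the second (background 11.3%) and 3 in the third, all of them higher (background 7.06% higher). The threshold of the study was met by 3 member transcripts in AngII vs. Control (background 2.88%), namely ENSMUST00000033161 of Scnn1b and ENSMUST00000163516 and ENSMUST00000226058 of Nedd4l. It was met by none in AngII+QDG vs. AngII (background 2.24%) and by the Scnn1b transcript in AngII+QDG vs. Control (background 2.02%).

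Across the 15 mice, Scnn1a and Scnn1b had a Pearson r of 0.524 (permutation p = 0.0415, adjusted p = 0.083 over 4 pairs) and a Spearman rho of 0.721 (permutation p = 0.00339, adjusted p = 0.0136). Without the 2 mice farthest from the median of Scnn1a, r was 0.450. After the group means were subtracted, r was 0.163 (permutation p = 0.559), so the relation lay between the groups and did not hold within them. Scnn1a and Scnn1g had r = 0.322 over all mice (rho 0.275) and r = 0.546 within groups (permutation p = 0.0344, adjusted p = 0.0868; 0.358 without 2 mice). Scnn1b and Scnn1g had r = −0.089 (rho 0.0964) and r = −0.316 within groups (permutation p = 0.247). The genes whose log2 levels ran most like a member over the 15 mice, as a description, were Sart1 (r = 0.936), Gm12715 and Srsf6 for Scnn1a, and Ano8 (r = 0.915), 2310033P09Rik and Flot1 for Scnn1b. For Scnn1g they were Frg1 (0.852), AU020206 and Tmod3, for Nr3c2 Clns1a (0.834), Rras2 and Ppp1r13l, and for Hsd11b2 Ugt8a (0.814), Elmod3 and Exoc7. For Sgk1 they were Mknk2 (0.799), Gadd45g and Arl4d, for Tsc22d3 Fam102a (0.819), Fbxo42 and Nsmaf, for Nedd4l Mrps17 (0.765), Glyctk and Eno1, and for Prss8 Arfgap3 (0.857), Nthl1 and Tmem184a. No member was among the 3 genes most like another.

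Of the genes around the members, Fkbp5 and Ywhah (given below) were called both in AngII vs. Control and in AngII+QDG vs. AngII. The co-chaperone Fkbp5 binds steroid receptors and is itself induced by glucocorticoids. Its summed level was 33.9, 37.5, 31.9, 41.03 and 36.2 FPKM in Control, 47.3, 80.1, 210, 64.4 and 99.0 FPKM in AngII, and 36.1, 26.2, 37.0, 31.0 and 30.8 FPKM in AngII+QDG. Every AngII mouse was above every mouse of the other groups. The log2 fold change was 1.26 in AngII vs. Control (standard error 0.28, limma adjusted p = 0.0227) and −1.42 in AngII+QDG vs. AngII (adjusted p = 0.0255). With single mice left out, 7 of 10 fits kept the first call (adjusted p up to 0.0554) and 4 of 10 the second (up to 0.0679); the first was lost without Control mouse 1, Control mouse 3 or AngII mouse 5, and the second without AngII mouse 2 or 5 or AngII+QDG mouse 2, 3, 4 or 5. Both were lost with only the 2 groups compared in the fit (adjusted p = 0.0643 and 0.0863), and the second with the principal cell covariate (adjusted p = 0.0557). Among 10 steroid receptor partners and enzymes, Fkbp5 was the only gene called higher in AngII vs. Control (background 4.95%). It was also the only one called lower in AngII+QDG vs. AngII (background 1.81% in either direction). Of 12 steroid-induced genes, 11 were tested, and Fkbp5, which is on both lists and was tested once, was the only one called.

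The glucocorticoid receptor Nr3c1 did not pass, with 21.1 ± 1.99 FPKM in Control and 18.4 ± 2.30 FPKM in AngII (SD, n = 5 each; log2 fold change −0.19, adjusted p = 0.244). Per1, a clock gene that aldosterone induces, had a log2 fold change of 0.87 in AngII vs. Control (adjusted p = 0.332). Zbtb16, a corticosteroid-induced transcription factor, had 1.11 there (adjusted p = 0.096). Cnksr3, a scaffold of the ENaC regulatory complex, had 0.22 (adjusted p = 0.384) and the deubiquitinase Usp2 −0.22 (adjusted p = 0.772). Fxyd4, a regulator of the sodium pump in the collecting duct, ranged from 1.35 to 27.3 FPKM between mice and had 0.91 (adjusted p = 0.444).

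Of 7 tested proteases and inhibitors that act on ENaC, 1 was called in AngII vs. Control (background 5.94%). Tmprss2, a membrane serine protease, had 3.13 to 7.62 FPKM in Control and 8.89 to 57.9 FPKM in AngII, a log2 fold change of 2.49 (adjusted p = 0.0224), and from 5.99 to 51.4 FPKM in AngII+QDG. Its call was lost without Control mouse 1, AngII mouse 2 or AngII mouse 5 (adjusted p up to 0.0549). Furin, the protease that cleaves the channel during its maturation, had −0.11 (adjusted p = 0.692). Among 9 genes of ubiquitin and 14-3-3 regulation, 2 were called higher in AngII vs. Control (background 4.95%). Ywhah, the 14-3-3 eta protein of a family that holds phosphorylated Nedd4-2 away from the channel, had 33.1 to 39.1 FPKM in Control, 40.7 to 45.3 in AngII and 33.5 to 36.6 in AngII+QDG, without overlap of AngII with the others. Its log2 fold change was 0.25 in AngII vs. Control (adjusted p = 0.0184) and −0.28 in AngII+QDG vs. AngII (adjusted p = 0.0222). Quantile normalization ended both calls (adjusted p = 0.107 and 0.0543), as did a fit of the 2 groups only (0.0505 and 0.0502). Median scaling ended the first (adjusted p = 0.0865), and leaving out AngII mouse 2 or 5 or AngII+QDG mouse 2 or 5 ended the second (adjusted p up to 0.0577). Usp10, a deubiquitinase, had 0.40 (adjusted p = 0.0479), and that call held in 1 of 10 alternatives (adjusted p from 0.0404 to 0.188) and in 1 of 10 fits with a mouse left out, the one without Control mouse 3. The ligase Nedd4 was listed at 1.61 to 39.9 FPKM with no order by group (log2 fold change 0.62, adjusted p = 0.743).

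Of 10 genes of kinase signaling around Sgk1 and 6 tested regulators of Scnn1a transcription, 0 were called in any comparison with limma, while 3 and 2 had an unadjusted p under 0.05 in AngII vs. Control, where 22.7% of all genes did. Among genes of the sodium pump and the potassium channels, Atp1b1, the beta subunit of the pump through which sodium leaves the cell, was higher in AngII vs. Control. It had 960.4 ± 68.3 FPKM in Control, 1136 ± 57.2 FPKM in AngII and 1108 ± 52.7 FPKM in AngII+QDG (SD, n = 5 each). Of the 5 AngII mice, 4 were above every Control mouse. The gene is expressed in all tubule segments. Its log2 fold change was 0.24 in AngII vs. Control (adjusted p = 0.0226), and the call was lost with median scaling (adjusted p = 0.136), with the 2 groups only (adjusted p = 0.0509) and without Control mouse 1 or 3 (adjusted p up to 0.0563). Against AngII, AngII+QDG had −0.036 (adjusted p = 0.802).

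**Figure D5:**
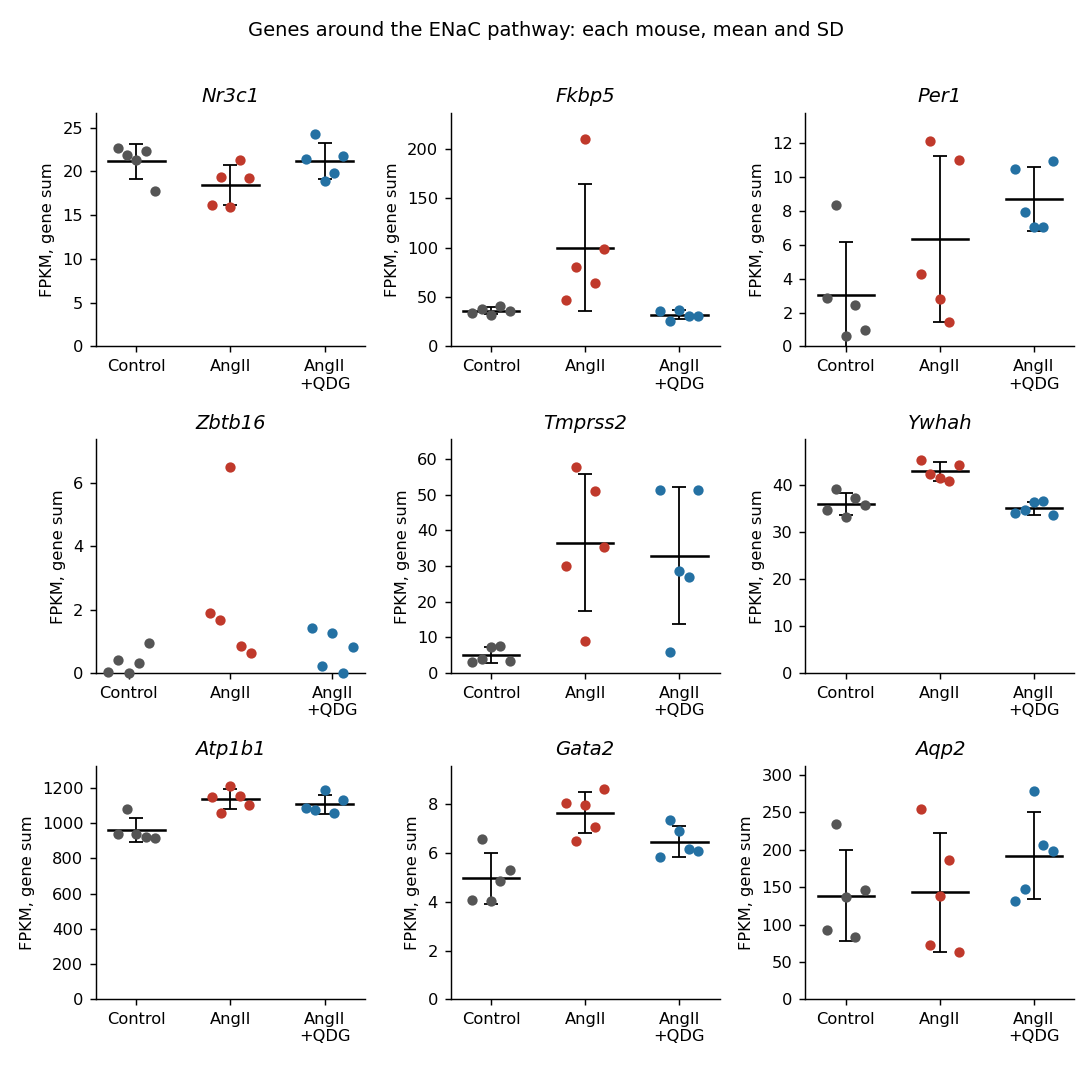
Gene sums in FPKM (vertical axes, from 0) of 9 genes around the ENaC pathway in each of 15 mice (points), by group, with the mean (bar) and SD (whiskers) of 5 mice; none is drawn for Zbtb16, which was listed near 0 in single mice, and the lower Per1 whisker in Control ends at the axis. Fkbp5 and Ywhah are the genes shown in which all AngII points lie above all points of both other groups.

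Markers of the cells that carry the members, and of others in the tissue, were counted in the same way. Of all genes tested, 5.94% were called in AngII vs. Control, 1.81% in AngII+QDG vs. AngII and 0.129% in AngII+QDG vs. Control. Of 7 tested principal cell markers, the transcription factor Gata2 was the only one called, in AngII vs. Control (4.97 ± 1.05 to 7.66 ± 0.844 FPKM, log2 fold change 0.55, adjusted p = 0.0165), a call kept in every alternative and with each mouse left out. Aqp2 had a log2 fold change of −0.050 (adjusted p = 0.96). No marker of the connecting tubule (3 tested), distal convoluted tubule (3), thick ascending limb (4), proximal tubule (6), endothelium (4), leukocytes (3), adrenal cortex (1) or adipocytes (2) was called in any comparison. In AngII vs. Control Slc26a4 (pendrin), of 4 intercalated cell markers, Podxl, a podocyte marker, and Pdgfrb, of 4 stromal markers, were called higher. Their log2 fold changes were 0.49 (adjusted p = 0.0312), 0.35 (adjusted p = 0.0278) and 1.13 (adjusted p = 0.0468). These calls rested on the settings: Slc26a4 held in 7 of 10 alternatives and 3 of 10 fits with a mouse left out, Podxl in 8 and 5, and Pdgfrb in 5 and 1 (adjusted p up to 0.0921, 0.121 and 0.109). All were lost with quantile normalization and with median scaling. Hba-a1, 1 of 4 erythroid markers, was higher in AngII+QDG vs. Control (log2 fold change 1.17, adjusted p = 0.0257), a call lost with the 2 groups only (adjusted p = 0.0879), with the principal cell covariate (adjusted p = 0.135) and without Control mouse 3 or 4 or AngII+QDG mouse 1, 2 or 3 (adjusted p up to 0.0824). The erythroid sum ran from 541 to 1350 FPKM in Control, from 1109 to 1936 FPKM in AngII and from 1550 to 2801 FPKM in AngII+QDG. In AngII vs. Control all 4 erythroid markers had a positive log2 fold change (median 0.93). Of these, 3 had an unadjusted p under 0.05 (background 22.7%) and none was called. Of 13 tested clock genes, Nr1d1 (0.44, adjusted p = 0.0371) and Ciart (1.06, adjusted p = 0.0329) were called higher in AngII vs. Control (background 4.95%). Nr1d1 held in 6 of 10 alternatives and Ciart in 7, and each in 2 of 10 fits with a mouse left out (adjusted p up to 0.112 and 0.0818). The part of these markers in the members' values was not tested, apart from the principal cell covariate given above.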

How the data were processed

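Renal RNA of 15 mice (5 per group) was depleted of rRNA and sequenced in pairs of reads on an Illumina HiSeq. Each deposited file gives a single number for every transcript in a mouse, covering annotated Ensembl transcripts and transcripts assembled by the authors. The sources used here do not name the unit. The numbers were taken as FPKM as deposited by the authors: multiplied by transcript length, 98.7% to 98.8% of those worth under 200 reads fell within 0.1 read of a whole number once divided by a constant found for that mouse, and these constants give the implied totals. The labels name the build mm10 and limma; the aligner is not given in the sources used here. Of 31301 Ensembl identifiers, 31254 matched GENCODE release M21 (GRCm38).

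FPKM was summed per gene over the annotated transcripts listed in all 15 files. The Control files list 41477 transcripts and the others 42310, and 3679 are not in all files. Genes reaching 1 FPKM or more in 5 or more mice were tested with limma 3.58.1 (R 4.3.3), with log2(FPKM + 1) as the response, the variance trend switched on and a mean per group for all 15 mice (12 residual degrees of freedom). Adjustment was by Benjamini-Hochberg over all genes. Fold changes on this scale understate those of low genes. Transcripts were fitted in the same way, shares were compared by exact permutation tests, and correlations used 100000 permutations. After the group means were subtracted, values were still permuted over all 15 mice without regard to group. The permutation p-values of those correlations are therefore likely too small. FPKM depends on how reads were split among transcripts with shared exons. The labels tie no mice to litters or batches, and p-values measure the spread between these mice.

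The members, the lists and the markers were chosen with earlier results of these data known. Genes outside the members were named if they passed the adjusted threshold in a list (at most 4 per list and comparison), together with Nr3c1, Fkbp5, Per1, Zbtb16, Nedd4, Furin, Usp2, Cnksr3, Fxyd4 and Aqp2, and for likeness the 3 genes with the highest r per member; Ren1 was added as a check of the labels. Some genes of these lists are not reported here. Alternatives were a pseudocount of 0.1, no filter, quantile and median scaling, missing transcripts as 0, no trend, 2 groups only, a principal cell covariate, coding transcripts only and each mouse left out. Reads summed per gene and scaled to library size were added after the data were seen.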

Additional observations from a re-analysis of the deposited data

Results flagged for a closer look

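Within a group of 5 mice, 4 gene sums of members stood far from the others, by a gap that exceeded Dixon's critical value for 5 samples. These were Scnn1a in Control mouse 2 (42.8 FPKM, the highest), Nr3c2 in Control mouse 1 (0.57 FPKM, the lowest), Sgk1 in AngII+QDG mouse 2 (130.2 FPKM, the highest) and Prss8 in AngII mouse 3 (95.1 FPKM, the lowest). They came from 27 groups of gene sums and 9 groups of subunit shares examined, and chance flags about 1 in 20. No call of Scnn1a depended on Control mouse 2.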

How the results depend on the processing

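The call of Scnn1a in AngII vs. Control kept its direction under all 10 alternatives and its side of the threshold under 9 of them; quantile normalization ended it, leaving 0 members called. The share of Scnn1g kept its direction and its side of the threshold in AngII vs. Control and in AngII+QDG vs. AngII under both alternatives. With single mice left out it kept its direction, while its adjusted p over 9 tests rose to 0.0714 in 8 and 9 of 10 cases; the exact permutation p was then at its smallest possible value, 0.0159. No paired analysis was possible because the replicate numbers only follow the accession order and pair no mice across groups. The fewest reads stood behind Nr3c2 (0 to 1519 per mouse) and behind the Scnn1b sums of Control mice 1 and 4 (221 and 406). The counting error of these values is the widest among the members. In the same Control mice 1421 and 1451 reads were given to the Control-only Scnn1b transcript, which is not in those sums. The cause of the changes below was not tested.

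The number of genes called in AngII vs. Control, 735 in all (612 higher and 123 lower), was 470 with median scaling, 456 with only the 2 groups in the fit and 408 with coding transcripts only. Of the called genes, 200 were higher and 270 lower with median scaling, and 227 and 268 with quantile normalization, so the excess of higher genes was lost under both scalings. In AngII+QDG vs. AngII, 224 genes were called (65 higher and 159 lower), 58 with 2 groups only and 103 with the principal cell covariate, and quantile normalization gave 97 higher and 97 lower. In AngII+QDG vs. Control, 16 genes were called (12 higher and 4 lower), 80 with missing transcripts as 0, 4 with 2 groups only, 0 with the covariate and 6 with coding transcripts only; quantile normalization gave 8 higher and 7 lower, and median scaling 8 and 12. With single mice left out, these counts ranged from 338 to 797, from 53 to 249 and from 0 to 110, and the count of called member transcripts in AngII vs. Control ranged from 0 to 1, the 1 being ENSMUST00000081440 of Scnn1a without AngII mouse 4.

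The share of Scnn1a in AngII vs. Control turned from −0.25 to 3.19 points with missing transcripts as 0 and ranged from −1.63 to 1.54 points with single mice left out. With single mice left out, it ranged from −5.28 to −3.55 points in AngII+QDG vs. AngII, where the exact permutation p rose above 0.05 in 7 of 10 cases (up to 0.0794). The Scnn1b share ranged from −0.20 to 1.74 points in AngII+QDG vs. AngII and from 4.51 to 9.64 points in AngII+QDG vs. Control, and the Scnn1g share from −3.83 to −1.40 points in the latter. After the group means were subtracted, r was 0.163 for Scnn1a and Scnn1b and 0.546 for Scnn1a and Scnn1g. The former was thus lost, and the latter came under an unadjusted permutation p of 0.05. That p is likely too small, because the permutation ignored the groups.

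Among single members and transcripts, none of which was called, the log2 fold change changed sign as follows. In AngII vs. Control, Scnn1g had −0.076 with quantile normalization and −0.075 with median scaling, and its transcript ENSMUST00000000221 had −0.054 and −0.10. Prss8 had 0.037 in AngII+QDG vs. AngII with quantile normalization. In AngII+QDG vs. Control, Tsc22d3 had −0.045 and ENSMUST00000092673 of Sgk1 had −0.35 with the covariate, and Nedd4l had 0.18 as reads summed per gene and scaled to library size. With single mice left out, values in AngII vs. Control ranged from −0.040 to 0.069 for Scnn1g and ENSMUST00000000221, from −0.38 to 0.15 for Nr3c2 and its transcript ENSMUST00000109912, from −0.22 to 0.12 for Sgk1, from −0.23 to 0.12 for Tsc22d3, from −0.16 to 0.22 for Prss8, from −0.19 to 0.21 for ENSMUST00000032988, from −0.85 to 0.14 for ENSMUST00000206124, from −0.35 to 0.027 for ENSMUST00000055738 and from −0.15 to 0.42 for ENSMUST00000112995. In AngII+QDG vs. AngII they ranged from −0.20 to 0.013 for Scnn1b and ENSMUST00000033161, from −0.29 to 0.099 for Prss8, from −0.37 to 0.084 for ENSMUST00000032988 and from −0.014 to 0.63 for ENSMUST00000126560. Those in AngII+QDG vs. Control ranged from −0.11 to 0.050 for Nedd4l, from −0.22 to 0.079 for Prss8, from −0.33 to 0.060 for ENSMUST00000032988 and from −0.36 to 0.13 for ENSMUST00000020145.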
